A study of Mus musculus with 8 samples.

Results

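The genes described here are 8 matrix genes of mouse mammary epithelial cells: the fibrillar collagen genes Col1a1, Col3a1 and Col11a2, the fibril-associated collagen gene Col9a1, the leucine-rich proteoglycan genes Fmod, Prelp and Dcn, and Pcolce2, which encodes an enhancer of procollagen processing. They were chosen by symbol from the 259 genes of the authors' deposited table, which holds a comparison of UBE1L with empty vector. The comparison sets 1 group against another, each labelled with 2 mRNA sequencing libraries. The UBE1L group is FVB strain cells, named PyVmT in the series' design text and carrying a Uba7 knockout, to which UBE1L was added; these cells received IFN, plus 6 hours of LPS at 100 ng/mL. The empty-vector group differs by its label only in carrying the control vector, so the knockout, IFN and LPS are common to both. Uba7 encodes UBE1L, the enzyme that starts ISGylation, in which the small protein ISG15 is joined to target proteins. The kind of IFN, the promoter driving UBE1L, and whether each vector was carried by 1 line, a pool or several clones are points not stated in the labels. Other groups, without LPS, complete the 8 libraries of the series and were not analysed here.

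Fibrillar collagens are secreted as procollagens, trimmed at their ends by proteases and assembled into fibrils that are then cross-linked. Small leucine-rich proteoglycans bind the surface of these fibrils and set their diameter and spacing. In the mammary gland most fibrillar collagen is laid down by stromal fibroblasts, while epithelial cells rest on a basement membrane with its own network-forming collagens. Type IX and type XI collagen are best known from cartilage.

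With UBE1L, 7 of the 8 genes were higher and Pcolce2 alone was lower in the authors' deposited table. Across all listed genes 83.8% were higher and 16.2% were lower, so the share of rises among the 8 lies near that of the whole table. These 8 genes were selected from this very contrast, so their folds, likelihood ratios and p-values are a description and not an independent test. How many genes the authors tested is not stated in the labels or the table. All 8 had an adjusted p under 0.01, as did 68.3% of all listed genes, and 2 of the 8, Fmod and Col11a2, had an absolute log2 fold of at least 1, against 22.8% of all listed genes. Of the 8, 7 had a mean abundance of 2 log2 CPM or more (CPM are counts scaled to library size), against 78.0% of all listed genes. Every listed gene has an absolute log2 fold of at least 0.50 and an adjusted p of at most 0.0498 in the authors' deposited table, so both limits had already been applied. No value per library was available, so whether the 2 groups overlap for any gene cannot be stated. An approximate standard error (SE) was therefore derived from each deposited fold and its likelihood ratio. The edgeR adjusted p of the 8 genes ran from 1.95e-37 for Col3a1 to 0.000460 for Dcn in the authors' deposited table. In bulk RNA, more cells of one kind and more RNA per cell cannot be told apart.

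**Figure D1:**
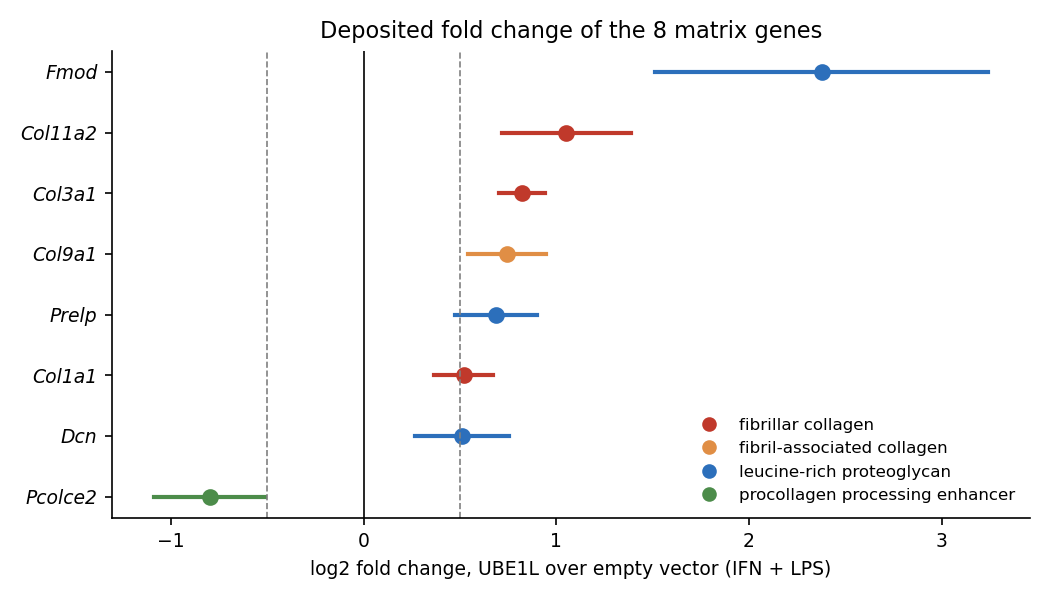
Log2 fold change of UBE1L over empty vector cells, both with IFN and LPS, for the 8 genes (points, coloured by class), with approximate 95% intervals derived from the likelihood ratio (lines). Dashed lines stand at 0.5 log2 units on either side of 0: Fmod stands apart at 2.38, Pcolce2 lies at -0.80, and the intervals of Prelp, Col1a1 and Dcn cross the dashed line.

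Bases upstream of the annotated start are shown for 5 of the genes: the neighbours Fmod and Prelp, the most abundant gene Col3a1, the collagen gene with the largest fold, Col11a2, and the 1 gene that was lower, Pcolce2. Each is the 250 bases before the start in RefSeq, build GRCm38.p6, printed 5′ to 3′ on the gene's own strand. Capitals mark matches on either strand to 5 of the 10 motifs searched, namely the TATA box, the CCAAT box, the GC box, the SMAD element and the gamma-activated site, whose letters are given with the results of the search; the Fmod window has no match to these 5.
Fmod, chr1:134037004-134037253, plus strand: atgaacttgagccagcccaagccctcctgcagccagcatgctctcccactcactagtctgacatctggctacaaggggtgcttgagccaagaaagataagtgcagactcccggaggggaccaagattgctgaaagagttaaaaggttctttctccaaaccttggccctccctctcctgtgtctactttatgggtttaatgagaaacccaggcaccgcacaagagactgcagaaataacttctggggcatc
Prelp, chr1:133921402-133921651, minus strand: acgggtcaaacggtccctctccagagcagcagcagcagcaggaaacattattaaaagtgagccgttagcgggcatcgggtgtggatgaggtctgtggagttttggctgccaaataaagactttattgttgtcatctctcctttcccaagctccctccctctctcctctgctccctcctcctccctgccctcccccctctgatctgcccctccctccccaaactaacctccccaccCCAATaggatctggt
Col3a1, chr1:45311288-45311537, plus strand: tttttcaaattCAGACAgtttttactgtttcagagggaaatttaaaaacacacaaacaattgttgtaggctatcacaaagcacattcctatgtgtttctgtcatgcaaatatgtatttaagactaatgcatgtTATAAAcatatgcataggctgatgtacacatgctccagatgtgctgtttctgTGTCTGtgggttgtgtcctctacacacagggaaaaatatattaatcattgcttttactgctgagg
Col11a2, chr17:34038888-34039137, plus strand: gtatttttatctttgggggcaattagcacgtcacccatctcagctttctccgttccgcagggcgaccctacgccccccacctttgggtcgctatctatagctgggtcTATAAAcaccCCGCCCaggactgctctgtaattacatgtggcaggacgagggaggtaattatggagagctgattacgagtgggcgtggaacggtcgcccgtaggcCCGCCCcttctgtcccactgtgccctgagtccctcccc
Pcolce2, chr9:95637378-95637627, plus strand: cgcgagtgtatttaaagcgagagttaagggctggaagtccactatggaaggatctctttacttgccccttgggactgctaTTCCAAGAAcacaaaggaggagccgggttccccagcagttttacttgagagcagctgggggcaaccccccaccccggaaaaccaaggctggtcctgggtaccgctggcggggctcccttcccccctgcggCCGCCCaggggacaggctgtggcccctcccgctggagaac

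RefSeq windows were found for 6 of the 8 genes, 7 windows in all because Col9a1 has 2 starts; Col1a1 and Dcn had no entry. The last 50 bases of the full windows, those after the start, occur in a GENCODE transcript of the same gene for all but Col11a2, so its start is less certain. Counting the last base before the start as -1, Col3a1 and Col11a2 match the letters of the TATA box (TATAAA) from position -117 and -143. Such a match occurs in 12.4% of all 32841 windows of the same length. Col3a1 also holds the only matches to the SMAD element (CAGACA) among the 7 windows, a pair of them, while 17.1% of all windows hold at least 1. The window of Prelp and the second one of Col9a1 match the CCAAT box from position -15 and -18, as do 33.9% of all windows at some position. A match to the GC box (GGGCGG) was found before Col11a2 and Pcolce2, against 32.7% of all windows. Whether any match lies at a distance from the start where such an element works was not examined.

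Elements tied to interferon and LPS signalling were searched in the same windows. The match to the gamma-activated site (TTCNNNGAA) before Pcolce2, from position -170, was the only one in the 7 windows, and 7.02% of all windows hold one. The interferon-stimulated response element in a shortened form (GAAANNGAA) had no match in the 7 windows, where 7.13% of all windows have one. An NF-kB site, also in a loose and shortened form (GGNNTTTCC), had 1 match, in the first window of Col9a1 from position -58, against 4.93% of all windows. An AP-1 site (TGANTCA, 6.75% of all windows) and a SOX site (ACAATG, 10.7%) were also without a match. The loosely defined E-box (CANNTG), left in lower case in the printed sequences, occurred in 5 of the 7 windows and in 66.2% of all windows. One of the 4 in Col3a1 directly follows its TATAAA match. These matches describe letters in short windows and show no binding.

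**Figure D2:**
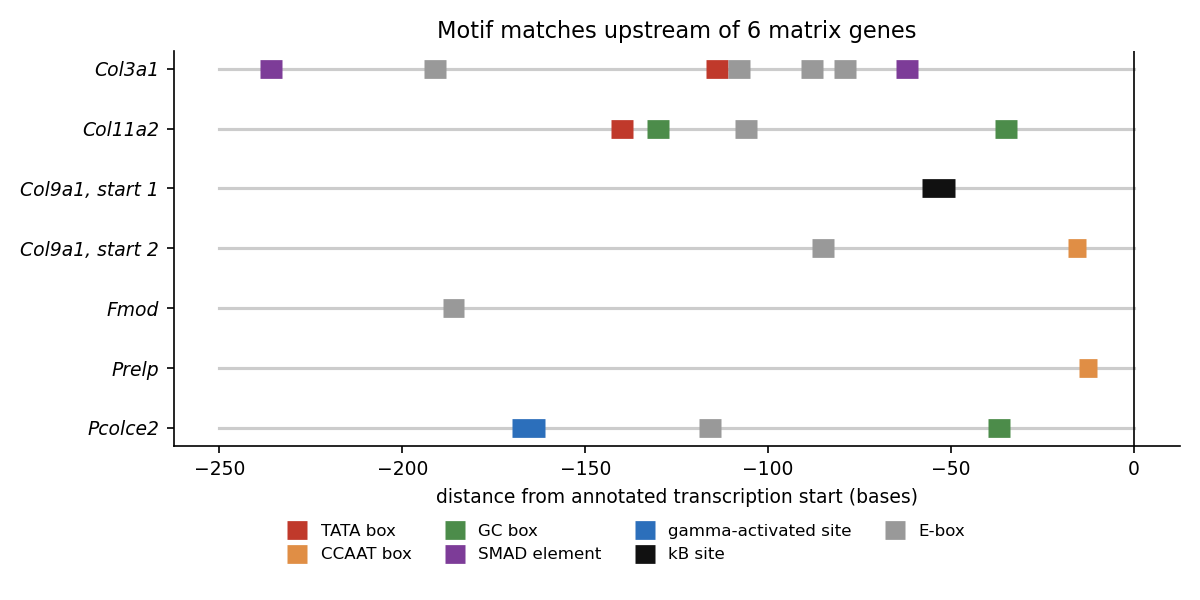
Positions of motif matches on either strand in the 250 bases before the annotated start (x axis, bases from the start) for the 7 RefSeq windows of 6 genes. Col3a1 has the most matches, Prelp has a single CCAAT box match, and Fmod has a single E-box match.

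The windows also differed in base composition. The Col3a1 window had 35.2% G and C and 0 CpG pairs, which puts it above only 4.98% of all windows. At the other end, the Pcolce2 window had 61.2% G and C with 10 CpG pairs, above 74.8% of all windows in G and C. The Col11a2 window had 57.6% with 14 CpG pairs, above 65.8% of all windows in G and C. The windows of Col9a1 had 43.6% and 56% G and C, and each also had 0 CpG pairs. Fmod, at 51.2%, and Prelp, at 55.6%, lay on either side of the median G and C content of all windows, 52.4%. Their CpG counts, 2 for Fmod and 5 for Prelp, were both under the median of 6.

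Among the fibrillar collagens, Col3a1 encodes the single chain of type III collagen, which forms fine fibrils together with type I collagen. Its transcript was 1.77-fold higher with UBE1L (log2 fold 0.82, approximate SE 0.062), at 8.20 log2 CPM, as the authors' deposited table has it. The abundance is a mean over libraries that the header does not name. Of the 8 genes it has the smallest approximate error, and by p-value it ranks 5 among the 259 genes of the authors' deposited table. Col1a1, which encodes the main chain of type I collagen, was 1.43-fold higher (log2 fold 0.52, approximate SE 0.079) at 5.37 log2 CPM, as the authors' deposited table has it. Its approximate 95% interval runs from 0.37 to 0.67 log2 units, so it includes folds below the limit at which genes were listed. Col1a2, the partner chain of Col1a1 in type I collagen, is not listed.

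The cartilage collagen gene Col11a2 encodes a chain of type XI collagen, which sits inside thin fibrils and limits their width. It was 2.07-fold higher with UBE1L (log2 fold 1.05, approximate SE 0.17, edgeR adjusted p 3.37e-08) at 3.69 log2 CPM, as the authors' deposited table has it. Col9a1 encodes a chain of type IX collagen, which coats fibrils and does not form them by itself. It was 1.68-fold higher (log2 fold 0.75, approximate SE 0.10, edgeR adjusted p 6.17e-11) at 4.38 log2 CPM, as the authors' deposited table has it. The chains that join Col11a2 and Col9a1 in cartilage trimers, Col11a1, Col2a1, Col9a2 and Col9a3, are not listed, and the levels of these partners were not analysed here.

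The 3 leucine-rich proteoglycan genes were all higher, but over a wide range of folds and levels. Fmod encodes fibromodulin, which binds type I collagen and influences its cross-linking. It was 5.19-fold higher (log2 fold 2.38) in the authors' deposited table. The approximate SE derived from that entry was 0.44 log2 units, which gives an approximate 95% interval of 2.85 to 9.45-fold. That fold ranks 2 among the 217 higher genes, after Uba7, but the mean abundance of Fmod, 0.81 log2 CPM, ranks only 239 of 259 in the authors' deposited table. In simulated Poisson counts the approximate SE was between 0.893 and 0.897 of the true one at a log2 fold of 2. The interval for Fmod may therefore be too narrow. Prelp encodes a heparin- and collagen-binding protein with a basic end, found where basement membranes meet connective tissue. It was 1.61-fold higher (log2 fold 0.69, approximate SE 0.11, edgeR adjusted p 1.34e-08) at 4.13 log2 CPM, as the authors' deposited table has it. Dcn encodes decorin, which coats collagen fibrils and also binds TGF-beta. It was 1.42-fold higher (log2 fold 0.51, approximate SE 0.12) at 3.69 log2 CPM, with the lowest likelihood ratio of the 8 genes, 16.7, in the authors' deposited table. Its fold exceeds 0.5 by only 0.0088 log2 units, so a gene with a fold barely smaller would not have been listed.

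Pcolce2 encodes a secreted glycoprotein that binds procollagen and speeds the removal of its carboxy-terminal propeptide by BMP1. It was 1.74-fold lower with UBE1L in the authors' deposited table, and the approximate 95% interval derived here runs from 1.42 to 2.13-fold. Its log2 fold is -0.80 (approximate SE 0.15, edgeR adjusted p 2.21e-06) at 3.35 log2 CPM, and it ranks 12 by size among the 42 lower genes of the authors' deposited table. Bmp1 and the related enhancer gene Pcolce are not listed.

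**Figure D3:**
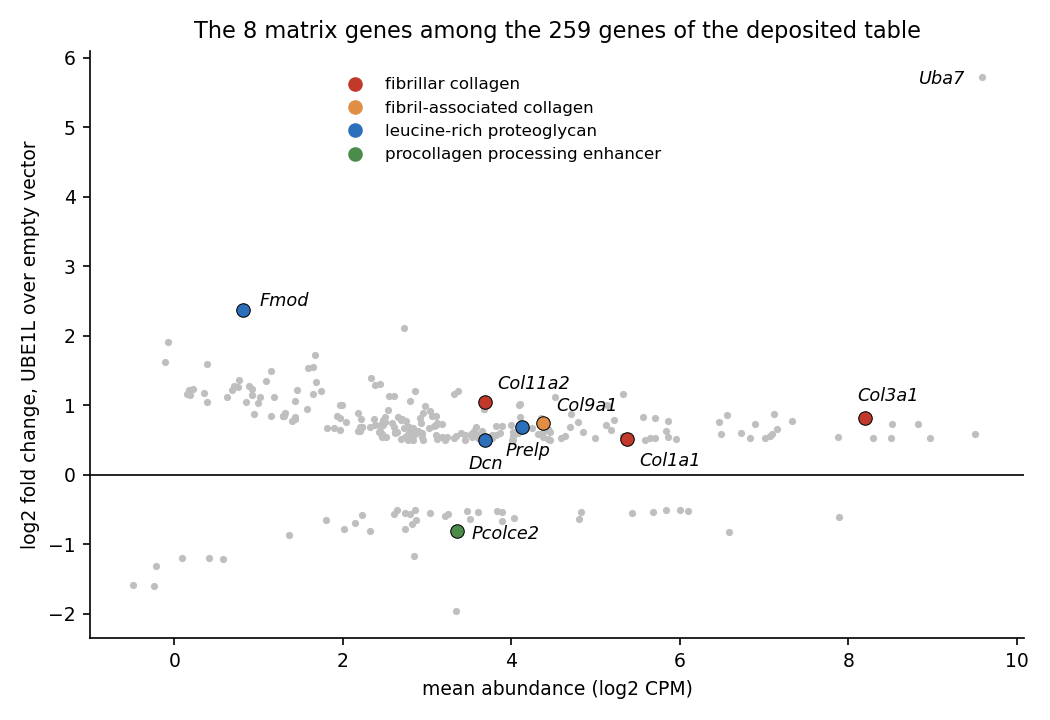
Mean abundance (x axis, log2 CPM) against log2 fold change of UBE1L over empty vector (y axis) for all 259 genes of the deposited table, with the 8 matrix genes coloured by class and Uba7 named. The band around 0 is empty because genes with an absolute log2 fold under 0.50 are not listed; Fmod lies at the low-abundance end, and Col3a1 at the abundant end.

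In the order of folds, neighbouring genes mostly differed by less than the error, while some wider gaps exceeded it. Fmod exceeded Col11a2, the next in order, by 1.32 log2 units with an approximate SE of 0.47 for the gap. From Col11a2 through Col3a1, Col9a1, Prelp and Col1a1 to Dcn, each gap to the next gene was 0.01 to 0.23 log2 units with an approximate SE of 0.12 to 0.18, so each of these 5 gaps has an approximate 95% interval that includes 0. Among the same 6 genes, the intervals of 4 wider gaps did not include 0. Col11a2 exceeded Col1a1 by 0.17 to 0.90 and Dcn by 0.13 to 0.96 log2 units. Col3a1 exceeded Col1a1 by 0.11 to 0.50 and Dcn by 0.04 to 0.58 log2 units. The 1.31 log2 units between Dcn and Pcolce2 had an approximate SE of 0.19. These SEs treat the genes as independent, although all 8 were measured in the same libraries. The intervals were not corrected for the number of pairs compared. Col1a1 and Dcn also lie just above the limit of 0.5 log2 units at which genes were listed, so the gaps are a description only.

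Levels of different genes can be compared only per length. Divided by the longest GENCODE transcript, the mean abundance of Col3a1 came to 53.0 CPM per kb, and that of Col1a1, next in order, to 6.99 CPM per kb. Col9a1 followed at 5.43 and Prelp at 4.85 CPM per kb. Dcn stood at 2.75, Pcolce2 at 2.30 and Col11a2 at 2.13 CPM per kb, while Fmod was lowest at 0.563 CPM per kb. So the gene with the largest fold was the least abundant of the 8 per length, and the most abundant one, Col3a1, ranked 3 of the 8 by fold. Only genes past the authors' limits on p and fold are listed, and Fmod had the largest approximate SE of the 8, 0.44. Nothing is therefore read from this contrast of fold and abundance. No spread can be given for these levels, since they are means with no error in the authors' deposited table. Which transcript of each gene was expressed is not known, so the order of genes with close values is uncertain.

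**Figure D4:**
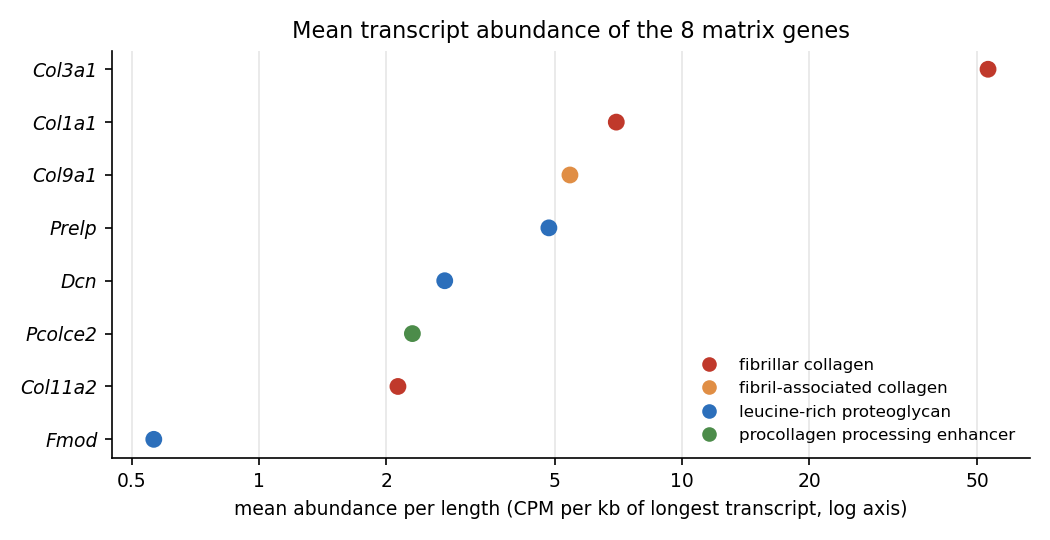
Mean abundance per length for the 8 genes (x axis, CPM per kb of the longest GENCODE transcript, log axis), coloured by class. Col3a1 stands at 53.0, Fmod at 0.563, and the other 6 genes between 2.13 and 6.99 CPM per kb.

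The 8 genes lie on 5 chromosomes, with Col3a1, Col9a1, Fmod and Prelp on chromosome 1. Fmod and Prelp are next to each other in the order of protein-coding genes in RefSeq, between Btg2 and Optc. Optc, which encodes the leucine-rich proteoglycan opticin, and Btg2 are not listed. On chromosome 10 Dcn lies beside Lum, which is followed by Kera and Epyc, and none of these 3 proteoglycan genes is listed. Col3a1 lies beside Col5a2 and Col9a1 beside Col19a1, and neither neighbouring collagen gene is listed. Within 4 protein-coding genes on either side of each of the 8 genes, the listed ones were Fmod and Prelp themselves. The transcripts share almost no sequence with other genes: 7 of the 8 had 0% of their 50-base stretches in common with another gene, and Col3a1 had 0.927%. Many other listed genes also had 0%, so this does not set the 8 apart.

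The wider collagen and matrix lists gave few other entries. Of 44 collagen genes, the 4 described here are listed and all 4 were higher, with a median log2 fold of 0.78, against 0.72 over the 217 higher genes of the authors' deposited table, where 83.8% of all listed genes were higher. They are 3 of 11 fibrillar and 1 of 9 fibril-associated collagens, and 0 of 24 other collagens, a group that holds the basement membrane chains. Of 17 small leucine-rich proteoglycan genes, the same 3 are listed, with a median log2 fold of 0.69 in the authors' deposited table. A gene that is not listed was not tested or did not pass the authors' limits, and is not counted as unchanged.

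Procollagen processing and modification had 3 of 30 genes listed, of which 2 were higher and Pcolce2 was lower in the authors' deposited table. Loxl3, a lysyl oxidase relative that cross-links collagen and elastin, was higher by 0.80 log2 units (edgeR adjusted p 2.87e-16) in the authors' deposited table. Adamts14, a protease that removes the amino-terminal propeptide of procollagen, was higher by 0.62 log2 units (edgeR adjusted p 5.32e-07) in the authors' deposited table. Among the listed genes that act on the ends of procollagen, Adamts14 was thus higher and Pcolce2 lower.

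Among 31 other matrix genes, Postn and Has2 are listed. Postn encodes periostin, a matricellular protein that binds collagen, and was higher by 0.73 log2 units (edgeR adjusted p 2.67e-21) at 8.52 log2 CPM, as the authors' deposited table has it. Has2, a hyaluronan synthase gene, was lower, at -0.54 log2 units by the authors' deposited table. Of 21 matrix proteases and inhibitors, the collagenase gene Mmp13 at 0.82 and the stromelysin gene Mmp3 at 0.53 log2 units are the 2 listed, both higher, in the authors' deposited table. None of 10 collagen receptor genes and none of 15 TGF-beta ligands, binders and targets is listed. Over all 12 lists, 14 of 202 genes are listed, 12 of them higher and 2 lower, beside 83.8% higher among all listed genes. These 14 include the 8 genes, and the lists were chosen with results known, so nothing is read from their number.

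Markers of other cells that make these collagens were looked up as well. None of 15 fibroblast markers other than the 8 genes, among them Pdgfra, Pdgfrb, Thy1 and Vim, and none of 15 cartilage and tendon markers, among them Sox9, Acan and Col2a1, is listed. None of 14 mammary epithelial markers, among them Epcam, Cdh1 and Krt8, is listed either. These 3 lists were chosen with results known and leave out the 8 genes and Postn, so nothing is read from their being empty. Genes tied to cell types do occur outside these lists, and the following were chosen after their values were seen. Krt6a, a keratin gene of epithelial cells, was lower, at -0.82 log2 units (edgeR adjusted p 1.05e-30) by the authors' deposited table, but 45.7% of its stretches occur in another gene, so its value is uncertain. Kit, a receptor gene of luminal progenitor cells, was higher by 1.02 log2 units, Cldn4, a tight-junction gene, by 0.82 and Ltf, which encodes the milk protein lactoferrin, by 0.76 in the authors' deposited table. Prrx1, a homeobox gene of mesenchymal cells, was higher by 0.81 log2 units (edgeR adjusted p 0.0112) at 2.38 log2 CPM, as the authors' deposited table has it. Ngfr, a neurotrophin receptor gene also found in basal epithelial cells, was lower, at -1.19 log2 units, with a mean abundance of only 0.094 log2 CPM by the authors' deposited table. The part of these genes' cells in the collagen values was not tested. Because the table leaves out genes that did not pass its limits, the level of the markers in these 3 lists is not known here and the labelled cell type could not be checked. Whether the cultures with either vector differed in cell makeup was not tested. Uba7 itself was 5.72 log2 units higher in the authors' deposited table, the direction its labels give.

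**Figure D5:**
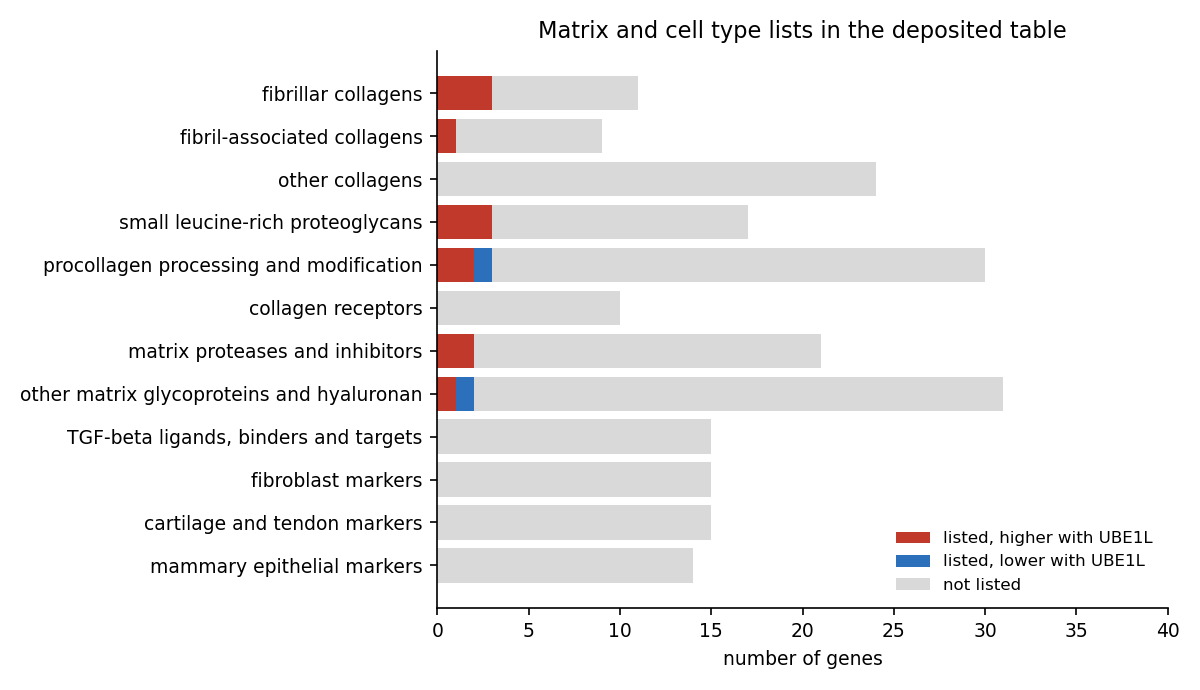
Number of genes (x axis) in each of 12 gene lists that the deposited table lists as higher (red) or lower (blue) with UBE1L than with empty vector, or does not list (grey). Listed genes occur in 6 lists, and the lists for other collagens, receptors, TGF-beta and the 3 sets of cell type markers have none.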

How the data were processed

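The values come from 1 table of the authors' own comparison, without data on single libraries. The fold, as the authors deposited it, is a log2 ratio of UBE1L over empty vector and the mean abundance is a log2 CPM; the base is not named and was taken as 2, as edgeR writes such columns. The likelihood-ratio score, its p-value and the adjusted p-value were used as deposited; the last has a header that names both Bonferroni and FDR. Per the submitters' processing notes, the tools included Trimmomatic 0.36, Salmon 0.9.1 and edgeR, whose roles are not stated there; for build, annotation, filter and model, the answer is not given in the sources used here. Per the labels' protocols, the RNA had integrity numbers between 9.2 and 10.0, and stranded libraries were read as single reads of 50 bases; the depth of each library is unknown. Separate cultures are not mentioned for the 2 libraries within a group, so the p-values may measure technical spread.

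No test was run. The 8 genes, the 12 lists and the alternatives were chosen with earlier results of these data known. The approximate SE is the absolute log2 fold divided by the square root of the likelihood ratio, and the approximate 95% interval takes the normal quantile of that SE on either side. The approximate SE was compared with the true one on simulated Poisson counts of 2 against 2 libraries. It was 0.993 to 1.00 of the true SE at a log2 fold of 0.5 and 0.971 to 0.973 at 1. The simulation had no spread between replicates beyond Poisson and used its own likelihood ratio. It therefore does not check the deposited likelihood ratios or the intervals drawn from them. Named genes are the 8 genes, Uba7, every listed gene of the 12 lists and chromosomal neighbours. A few cell type and matrix genes outside the lists are named too, chosen after their values were seen. Genes of like pattern were not sought, since 1 contrast gives no pattern over samples. Shared sequence was counted as 50-base stretches of GENCODE M21 transcripts, and 10 motifs were searched on both strands of RefSeq GRCm38.p6 promoter windows. Coordinates are those of these windows only, because the table names no build. Python 3.11.15, numpy 2.4.6, pandas 2.3.3, scipy 1.17.1 and matplotlib 3.10.9 were used.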

Additional observations from a re-analysis of the deposited data

How the results depend on the processing

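The limits on p, fold, abundance, shared sequence and symbols select among deposited values and cannot turn a direction. With an adjusted p under 0.01, which 68.3% of all listed genes passed, 7 higher and 1 lower of the 8 genes remained, and all 14 listed matrix genes. An absolute log2 fold of at least 1, passed by 22.8% of all listed genes, left 2 of the 7 higher genes (Fmod and Col11a2), 0 of the 1 lower gene and 2 of the 14 listed matrix genes. A floor of 2 log2 CPM on mean abundance, passed by 78.0% of all listed genes, removed Fmod alone. Bonferroni over all 49997 RefSeq genes, a number chosen because that of tested genes is not stated, removed Dcn and Mmp13. How many of all listed genes pass this Bonferroni limit was not counted, so nothing is read from that result. Requiring under 20% shared stretches, which 30 of the 259 listed genes failed, removed none of the 14. Matching by synonyms found the same number, 14. A uniform scaling shift would have to exceed 0.51 log2 units, the smallest of the 7 rises, to turn any of them, but one over 0.019 would take Col1a1 and Dcn under the authors' fold limit.

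No paired analysis was possible because single libraries have no values in this table. The planned omission of single replicates and the fit with a replicate block were therefore not run, and the limit that depth sets was not measurable.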

Other observations

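Some further matrix genes stand in the authors' deposited table outside the 12 lists, and were picked once their values were known, so their number says nothing about matrix genes as a class. Mxra8, which encodes a matrix-remodelling associated membrane protein, was higher with UBE1L by 1.35 log2 units (edgeR adjusted p 0.00249) at only 1.09 log2 CPM, as the authors' deposited table has it. Mgp, which encodes the matrix Gla protein that inhibits calcification, was higher by 1.21 log2 units (edgeR adjusted p 9.12e-10) in the authors' deposited table. Reck, a membrane-bound inhibitor of matrix metalloproteinases, was higher by 0.92, and Smoc1, a SPARC-related calcium-binding protein gene, by 0.64 log2 units in the authors' deposited table. C1qtnf6, which encodes a secreted protein with a collagen-like stretch, was higher by 0.77, Srpx2, a sushi-repeat protein gene, by 0.68, and Nov, a matricellular CCN family gene, by 0.60 log2 units in the authors' deposited table. Lrrc32, which encodes a membrane protein that holds latent TGF-beta, was higher by 0.95 log2 units (edgeR adjusted p 4.72e-11) in the authors' deposited table. Creb3l1, a transcription factor gene known for its role in collagen secretion in bone, was higher by 0.72 log2 units (edgeR adjusted p 0.0151) in the authors' deposited table. Mia, first described in melanoma and cartilage, was higher by 1.04 log2 units in the authors' deposited table, but 34.7% of its stretches occur in another gene, so its value is uncertain. Fst, which encodes the activin-binding protein follistatin, was lower, at -0.63 log2 units (edgeR adjusted p 1.44e-08) in the authors' deposited table.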
